A study of Mus musculus with 8 samples.

Results

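The genes described here were 8 genes best known from adipose tissue (Adipoq, Ucp1, Cidea, Fabp4, Plin1, Plin4, Lep and Retn), read in libraries of mouse heart. They were chosen by gene name out of 34745 genes in the deposited table, with their counts in these libraries known, so their own values are given as a description and without a test. All 8 were found in the table. Of the members, 6 are general fat genes and 2 (Ucp1 and Cidea) are the genes of brown fat.

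The hearts came from db/db mice, which lack a working leptin receptor through a mutation in Lepr and become obese and diabetic, and from db/m mice, which carry 1 copy of the mutation and served as controls. Both genotypes were untreated males of the strain labelled C57BL/KsJ and were sampled at 4, 12, 24 and 32 weeks of age, with 1 library per genotype and age. The number of hearts in a library is not given in the sources used here, and since more db/db animals were assigned to sequencing than there are libraries, a library may be a pool. The extracts are labelled only as heart, and no replicate exists for a genotype at 1 age. Values of a gene are listed below in the order of 4, 12, 24 and 32 weeks.

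Adipocytes store triglyceride in a lipid droplet that is coated by perilipins, and they release hormones such as adiponectin, leptin and resistin. Brown adipocytes burn fat for heat through an uncoupling protein in the mitochondrial inner membrane. Fat also lies around the heart, on the epicardium and along the great vessels, and heart muscle itself takes up fatty acids as its main fuel and holds small droplets, so a gene named for fat can be read from more than one kind of cell in a heart.

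Depth was 14445436 to 22214678 counts per library for db/m and 19246305 to 26676268 for db/db. The heart muscle list was abundant in all 8 libraries, with summed levels of 57200 to 70120 CPM (counts scaled to library sizes that were adjusted by the TMM method). Some libraries stood apart by genes of other tissues. Myl7, the atrial myosin light chain, was read 552 times in db/m at 32 weeks and 392, 662 and 26 times in db/db at 4, 24 and 32 weeks, and 0 times in the other 4 libraries. Myh4, of fast skeletal muscle, gave 864 counts in db/m at 4 weeks and at most 2 elsewhere, and Alb, the liver's albumin, gave 382 to 417 counts in db/db from 12 weeks on against 0 to 18 in the other libraries. Lepr, the mutated gene, was read 223, 89, 150 and 115 times in db/m and 127, 61, 107 and 126 times in db/db. The gene-level count of Lepr does not check the genotype, since the db mutation alters the splicing of 1 isoform.

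The promoters of 4 members are shown because they span the range of the data, from the hormone genes Adipoq and Lep and the brown fat gene Ucp1, all near 0 in most hearts, to Plin4, abundant in every heart. Each sequence is the 250 bases just before the gene's start in RefSeq (GRCm38.p6), on the gene's strand, 5′ to 3′, and Adipoq lies at chr16:23146286-23146535, Lep at chr6:29059971-29060220, Ucp1 at chr8:83290098-83290347 and Plin4 at chr17:56109783-56110032. Capitals mark TATAA (the TATA box), CCAAT (the CCAAT box) and AGGTCA (the half-site of nuclear receptors), searched on both strands.
Adipoq: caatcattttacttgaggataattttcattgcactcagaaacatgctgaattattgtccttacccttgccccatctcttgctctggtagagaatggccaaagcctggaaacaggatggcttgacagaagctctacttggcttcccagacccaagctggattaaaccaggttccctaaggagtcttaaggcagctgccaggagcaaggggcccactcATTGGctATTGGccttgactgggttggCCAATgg
Lep: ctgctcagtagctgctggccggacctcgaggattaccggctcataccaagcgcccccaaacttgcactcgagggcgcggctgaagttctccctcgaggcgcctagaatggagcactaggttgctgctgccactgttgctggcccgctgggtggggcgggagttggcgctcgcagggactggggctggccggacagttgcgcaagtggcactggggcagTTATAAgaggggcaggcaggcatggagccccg
Ucp1: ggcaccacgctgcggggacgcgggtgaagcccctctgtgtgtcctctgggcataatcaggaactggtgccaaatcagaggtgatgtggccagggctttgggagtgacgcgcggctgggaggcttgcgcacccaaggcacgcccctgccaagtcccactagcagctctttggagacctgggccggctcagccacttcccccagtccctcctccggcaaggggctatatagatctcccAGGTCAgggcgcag
Plin4: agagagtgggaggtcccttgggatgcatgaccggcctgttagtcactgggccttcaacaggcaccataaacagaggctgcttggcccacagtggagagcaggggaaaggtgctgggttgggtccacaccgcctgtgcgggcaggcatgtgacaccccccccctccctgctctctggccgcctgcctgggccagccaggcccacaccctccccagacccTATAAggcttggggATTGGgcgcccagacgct

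Adipoq held 3 CCAAT letters within 34 bases of its start, and Lep held TATAA on both strands in overlapping positions 27 to 32 bases before its start. Plin4 held TATAA at 28 to 32 bases and CCAAT on the other strand at 14 to 18 bases, and Ucp1 held AGGTCA at 9 to 14 bases. No match was found in the same window of Plin1 or Retn. Over 32851 promoters of the same length, 22.8% held TATAA, 33.8% CCAAT and 14% AGGTCA, so each match is common and is only a description of the letters. Fabp4 and Cidea have no sequence shown.

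The 8 genes split into 2 unlike sets. Fabp4, Plin4 and Cidea took 99.9% of the 145977 reads on the members and were above 3 counts, the floor used for detection, in all 8 libraries. Adipoq passed that floor in 3 libraries, Plin1 in 2, and Ucp1, Lep and Retn in 1 each. The deposited FPKM divides by a length assigned to each gene, which was not compared with that of its spliced transcript. By FPKM the median over the libraries was 66.91 for Fabp4, 52.86 for Plin4 and 15.25 for Cidea. These medians lay at percentiles 99.03, 98.75 and 95.22 of all genes. The highest FPKM of any near-0 member in any library was 0.63, for Adipoq in db/db at 4 weeks. The name of adipose genes therefore fitted the data unevenly, since 3 of the 8 were abundant in hearts where adiponectin and the adipocyte perilipin were at 0 to 3 counts.

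**Figure D1:**
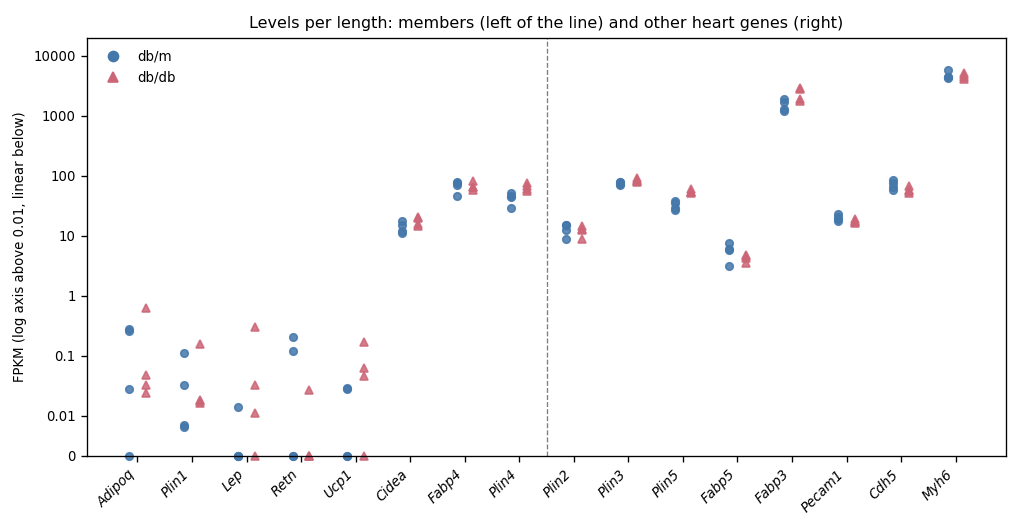
Deposited FPKM (vertical axis, logarithmic above 0.01) of the 8 members, left of the dashed line, and of 8 other genes of the heart, right of it. Each point is 1 library, with circles for db/m and triangles for db/db. Cidea, Fabp4 and Plin4 sit between 11.1 and 80.9 among the droplet coat, endothelial and fatty acid binding genes, while the 5 other members stay at or under 0.63.

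Adipoq encodes adiponectin, the hormone made by adipocytes, and lies at chr16:23146536-23158028 on the forward strand of GRCm38. It was read 6, 0, 1 and 9 times in db/m and 22, 1, 2 and 1 times in db/db. The highest value was that of db/db at 4 weeks, followed by db/m at 32 and at 4 weeks, and the genotypes overlapped. At 4 weeks the scaled count was 2.78-fold higher in db/db (95% interval 1.09 to 8.37), and at 32 weeks it was 9.55-fold higher in db/m (1.32 to 419, on 1 count in db/db), or 3.18-fold with that count set to the floor. These intervals, like all intervals below, cover counting error only, with none of the spread between hearts.

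Plin1, perilipin 1, coats the large droplet of adipocytes (chr7:79720218-79732903, reverse strand). Its counts were 3, 1, 1 and 14 in db/m and 22, 3, 3 and 2 in db/db. The same 2 libraries that were highest for Adipoq were highest for Plin1, db/db at 4 weeks and db/m at 32 weeks. The ratio of db/db to db/m was 5.55 at 4 weeks (1.67 to 29.0, on 3 counts in db/m), and the ratio of db/m to db/db was 7.43 at 32 weeks (1.71 to 67.3, on 2 counts in db/db), or 4.95 with those set to the floor. Sequence of 31 bases shared with other genes made up 1.74% of what it transcribes, so a few of these reads could belong elsewhere.

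Lep encodes leptin, the satiety hormone whose receptor does not work in db/db mice (chr6:29060220-29073877, forward strand). It was read 0, 0, 0 and 1 times in db/m and 23, 1, 3 and 0 times in db/db. Only db/db at 4 weeks was above the floor, and there it was at least 5.80-fold higher than in db/m of that age, where it had 0 counts, set to 3 for this bound. The lower 95% limit of the ratio, with the counting error of the 23 reads included, was 4.35. Within that library 23 of the 45 reads on Lep and Adipoq were of Lep, a share of 51.1% (exact binomial interval 35.8 to 66.3), whereas in db/m at 32 weeks 1 of 10 was, a share of 10.0% (0.253 to 44.5).

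Retn encodes resistin, a hormone of white adipocytes in mice (chr8:3655770-3660110, forward strand). Its counts were 3, 0, 0 and 7 in db/m and 1, 0, 0 and 0 in db/db. Retn was highest in db/m at 32 weeks and not in db/db at 4 weeks, the library that led Adipoq, Plin1 and Lep. Of the reads on Retn and Adipoq, 7 of 16 were of Retn in db/m at 32 weeks (43.8%, 19.8 to 70.1) and 1 of 23 in db/db at 4 weeks (4.35%, 0.11 to 21.9). The other 7 libraries were at or under the floor of 3 counts, and 3.23% of its 31-base stretches also occur in other genes.

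The reads of Adipoq, Plin1, Lep and Retn together numbered 12, 1, 2 and 31 in db/m and 68, 5, 8 and 3 in db/db. Of these 130 reads, 99 (76.2%) came from db/db at 4 weeks and db/m at 32 weeks, 1 library of each genotype. Adipoq and Plin1 were above the floor in both of these libraries, whereas Lep was above it in db/db at 4 weeks alone and Retn in db/m at 32 weeks alone. In bulk tissue, fewer cells of a type and less RNA per cell cannot be told apart.

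**Figure D2:**
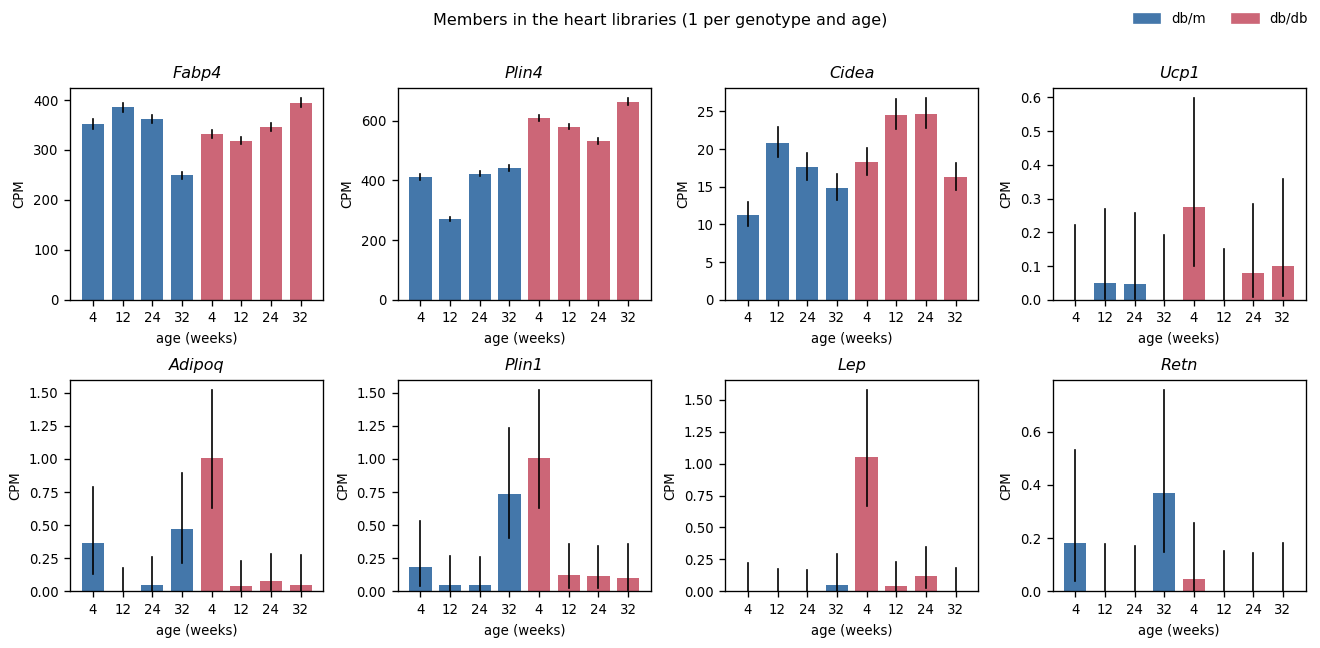
CPM (vertical axes, each starting at 0) of each member in each library, by age in weeks, with bars in blue for db/m and red for db/db and lines for the 95% Poisson interval of the count. Plin4 was higher in every db/db library than in every db/m library, while Adipoq, Plin1 and Lep were highest in db/db at 4 weeks and Retn in db/m at 32 weeks.

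Other fat genes were compared library by library with the median of the 8 libraries, and a gene was counted when it had at least 10 counts in that library and stood at least 4-fold above that median, with medians at or under 3 counts set to 3. Of the members, Adipoq (6.86-fold), Plin1 (6.86-fold) and Lep (7.18-fold) passed in db/db at 4 weeks, where 0.412% of all genes did, and Plin1 (5.01-fold) passed in db/m at 32 weeks, where 0.564% did. No member passed in db/m at 4, 12 or 24 weeks (2.15%, 0.185% and 0.264% of all genes) or in db/db at 12, 24 or 32 weeks (0.331%, 0.901% and 0.867%). Since the members were chosen with these counts known, the shares of all genes are given beside them and nothing is read from the difference.

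The general fat list held 24 genes of the table beside the members. Car3, a carbonic anhydrase abundant in adipocytes and in skeletal muscle, was read 146, 1, 4 and 64 times in db/m and 73, 9, 13 and 7 times in db/db. Cfd, the adipocyte serine protease adipsin, was read 18, 1, 0 and 29 times in db/m and 12, 0, 6 and 0 times in db/db. Cidec, which fuses lipid droplets in adipocytes, was read 2, 0, 0 and 11 times in db/m and 16, 0, 6 and 0 times in db/db. These 3 are named because they stood above the median library. The list's summed level was 944, 1006, 1046 and 873 CPM in db/m and 1023, 1141, 1116 and 1002 CPM in db/db. That sum was lowest in db/m at 32 weeks and did not follow Adipoq, and the list had a Pearson r with Adipoq of -0.459 (n = 8, a description). Genes abundant in every library carried the sum, with Pnpla2 and Dgat2 at 210 and 250 CPM in db/m at 32 weeks, so it says little about genes with few reads. Singly, Cidec, Car3 and Cfd had an r with Adipoq of 0.896, 0.809 and 0.745, but they were named for standing high in libraries that led Adipoq. The lipase Pnpla2 and the glycerol channel Aqp7 had 210 and 33.7 CPM in db/m at 32 weeks and 207 and 40.3 CPM in db/db at 4 weeks, the lowest values of each genotype. Car3 passed the 4-fold rule in db/m at 4 and 32 weeks and db/db at 4 weeks, Cfd in db/m at 4 and 32 weeks and Cidec in db/db at 4 weeks.

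In the white fat list of 12 genes, Nnat, an imprinted gene of the endoplasmic reticulum, was read 1, 0, 1 and 17 times in db/m and 13, 1, 7 and 1 times in db/db. It passed the rule in db/m at 32 weeks, as did Mest in db/m at 4 weeks (445 counts) and Sfrp5 and Apol6 in db/db at 24 weeks (186 and 67 counts). No gene of the brown fat list passed in any library.

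Genes of other tissues moved with the near-0 members in part. The summed level of the 7 atrial genes was 91.0, 97.1, 107 and 368 CPM in db/m and 189, 71.3, 287 and 79.2 CPM in db/db, so the 2 libraries that led the low members were among the 3 highest, and the third, db/db at 24 weeks, held 8 reads on the low members. The 10 fast skeletal muscle genes summed to 151, 25.2, 21.9 and 66.8 CPM in db/m and 53.4, 18.6, 42.5 and 15.7 CPM in db/db, highest in db/m at 4 weeks, where 9 of the 10 passed the 4-fold rule and Adipoq had 6 reads. In db/m at 32 weeks and db/db at 4 weeks nearly all of that sum, 65.1 and 50.9 CPM, was Mybpc2, and Myh4 and Myh1 had 0 to 2 counts there. The 10 mesothelial genes summed to 7.29 to 20.1 CPM in db/m and 5.48 to 13.8 CPM in db/db, highest in db/m at 32 weeks. The keratin Krt8 went against the rest of its list, with 104 counts in db/m at 4 weeks and 13 in db/m at 32 weeks. In db/m at 4 weeks 6 of the 10 mesothelial genes, Msln and Upk3b among them, were at 0. Krt18 had 44 counts in that library but its highest value, 67 counts, in db/m at 32 weeks. The 10 thymus and lymph node genes summed to 0.945 to 5.20 CPM over all libraries. Myl7 was at 0 in 4 of the libraries and Myh4 in 3. By mean FPKM these lists were led by Nppa (108), Myl7 (15.2) and Tbx5 (5.36) for the atrium, Mybpc2 (8.88), Atp2a1 (1.53) and Myh4 (1.16) for fast skeletal muscle, Krt18 (0.964), Wt1 (0.766) and Krt8 (0.631) for the mesothelium, Ahsg (2.57), Alb (2.52) and Ttr (0.39) for the liver, and Cd79a (0.187), Cd4 (0.179) and Cd3e (0.158) for thymus and lymph node. The part of atrial tissue, skeletal muscle, mesothelium and the tissue around the heart in the counts of the low members was not tested.

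**Figure D3:**
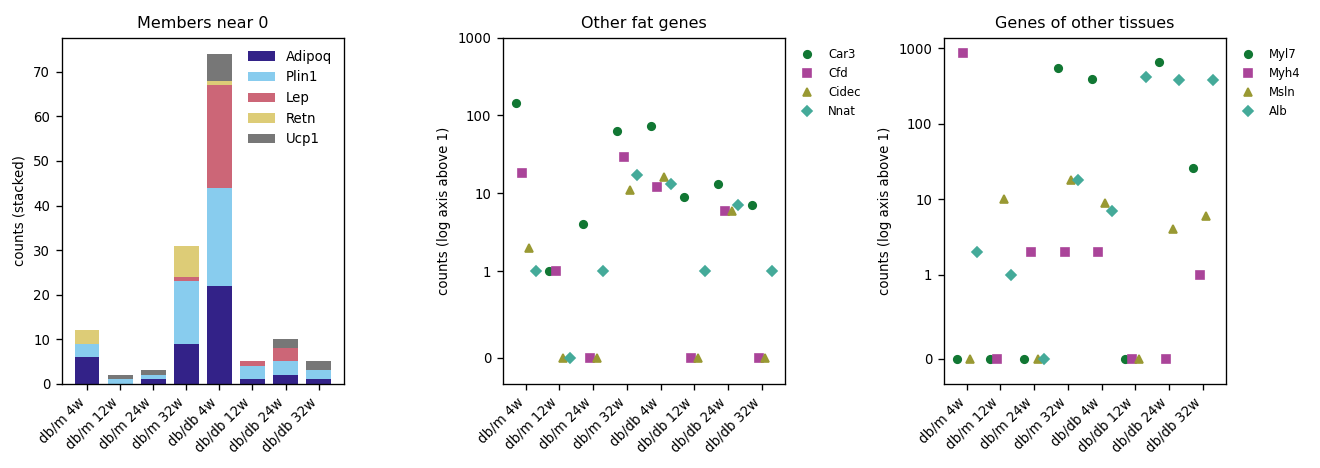
Counts in each of the 8 libraries of the 5 members near 0 (left, stacked on a linear axis), of 4 other fat genes (middle) and of marker genes of atrium (Myl7), skeletal muscle (Myh4), mesothelium (Msln) and liver (Alb, right), the last 2 panels on an axis that is logarithmic above 1. The low members peak at db/db 4 weeks and db/m 32 weeks, where Cidec, Cfd and Nnat are also above 10 counts and Myl7 reaches 392 and 552.

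Ucp1 encodes the uncoupling protein of brown fat (chr8:83290348-83298456, forward strand). It was read 0, 1, 1 and 0 times in db/m and 6, 0, 2 and 2 times in db/db. Only db/db at 4 weeks was above the floor, the library that also led Adipoq, Plin1 and Lep. There, 6 of 28 reads on Ucp1 and Adipoq were of Ucp1 (21.4%, 8.30 to 41.0), while in db/m at 32 weeks 0 of 9 were, which allows a share of up to 33.6%. The 2 shares were not distinguishable at this depth.

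Cidea, a droplet protein used as a marker of brown fat (chr18:67343564-67367794, forward strand), did not follow Ucp1. It was read 187, 431, 383 and 284 times in db/m and 399, 601, 628 and 329 times in db/db, and Ucp1 was at most 1.48% of the reads on both genes (db/db at 4 weeks, 0.546 to 3.2). Cidea had its lowest counts at 4 and 32 weeks in both genotypes. An antisense gene, B430212C06Rik, overlaps the start of Cidea and had 14 to 66 counts, and whether the counting used strand is not given in the sources used here.

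Of the 20 other genes in the brown fat list, the 3 with the highest FPKM were Pdk4, which inhibits pyruvate dehydrogenase, and the mitochondrial subunits Cox7a1 and Cox8b, with mean values over the libraries of 741, 634 and 199.6. These genes are also made by heart muscle, and Pdk4 stood in a second list, of PPARA targets of heart muscle. By contrast Zic1, Lhx8, Elovl3, Otop1, Bmp8b and Slc27a2, which were named after their values were seen, had at most 6 counts in any library. Other genes of the list used to tell brown fat, also named after their values were seen, were detected in every library, with 497 to 867 counts of Prdm16, 162 to 250 of Ebf2, 35 to 122 of Dio2 and 3145 to 6743 of Ppargc1a. The summed level of the brown list was 3428 to 6465 CPM in db/m and 3977 to 5492 CPM in db/db, and the kind of cell it came from was not tested.

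The reads of Ucp1 and Cidea were set against those of the 6 general members. Their share was 1.46%, 3.09%, 2.21% and 2.10% in db/m and 1.92%, 2.66%, 2.75% and 1.52% in db/db. The intervals at 24 and 32 weeks overlapped in db/m (2.00 to 2.44 and 1.87 to 2.36). By FPKM the share was 7.88% to 14.6%, with 11.6% at both of these ages in db/m, and without Fabp4 and Plin4 it was 85.6% (db/db at 4 weeks) to 99.8% of the reads. The share of brown genes thus depended almost wholly on the 3 abundant members, of which Cidea is the brown one.

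Fabp4 encodes a fatty acid carrier of adipocytes that capillary endothelium and macrophages also make (chr3:10204088-10208576, reverse strand). It was read 5825, 7980, 7843 and 4756 times in db/m and 7273, 7777, 8791 and 7986 times in db/db. Scaled levels averaged 337 ± 60.1 CPM for db/m and 348 ± 33.3 CPM for db/db (mean ± SD over the 4 ages, n = 4 libraries each), and the ranges overlapped. The ratio of db/db to db/m was 0.945, 0.826, 0.957 and 1.58 at the 4 ages, and at 32 weeks db/m held the lowest level of the 8 libraries, 249.5 CPM, and db/db the highest, 394.8 CPM. For every 100 reads on 10 endothelial genes, Fabp4 had 22.3, 24.2, 24.0 and 15.7 reads in db/m and 24.5, 23.4, 28.1 and 25.9 in db/db, so db/m at 32 weeks was low against the endothelial genes as well. Fabp3, the fatty acid carrier of heart muscle, was 15.3 to 49.4 times as high as Fabp4 by FPKM. CPM does not divide by length, and there the gap was smaller. Fabp3 and Fabp4 held 864 and 352 CPM in db/m at 4 weeks and 2520 and 318 CPM in db/db at 12 weeks.

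Plin4, a perilipin found on small droplets in fat, muscle and heart (chr17:56100591-56109803, reverse strand), was the only member in which every db/db library lay above every db/m library. It was read 6789, 5587, 9153 and 8424 times in db/m and 13316, 14183, 13493 and 13417 times in db/db. The scaled levels were 410, 270, 422 and 442 CPM in db/m (mean 386 ± 78.6, SD, n = 4) and 609, 580, 531 and 663 CPM in db/db (596 ± 55.2), a ratio of means of 1.54. By age the ratio was 1.48, 2.15, 1.26 and 1.5, largest at 12 weeks, where db/m had its lowest value. Among 15237 genes that passed a filter on low counts, 3.23% had all db/db libraries above all db/m libraries and 3.04% had them all below. The 3 members that passed that filter were Cidea, Fabp4 and Plin4.

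Plin5, the perilipin of oxidative muscle that lies 1797 bases from Plin4 and is no member, held 95.8, 84.5, 123 and 95.2 CPM in db/m and 158, 177, 175 and 180 CPM in db/db. These groups did not overlap either, and the FPKM of Plin4 was 1.03 to 1.58 times that of Plin5 in the 8 libraries. By CPM, which does not divide by length, Plin4 was further above Plin5, with 410 against 95.8 CPM in db/m at 4 weeks. Across the libraries log2 CPM of Plin4 and of Plin5 had a Pearson r of 0.886 (n = 8, a description across libraries that share genotype, age and depth). The summed level of the 10 liver genes, 4.05, 1.64, 2.49 and 6.87 CPM in db/m and 7.64, 25.3, 24.0 and 30.5 CPM in db/db, also moved with Plin4 (r = 0.847, n = 8), and the part of liver RNA in the level of Plin4 was not tested. No 31-base stretch of the transcripts of Plin4 occurs in another gene. The gene Hdgfl2, deposited as Hdgfrp2 with 411 to 660 counts, overlaps the end of Plin4 on the other strand.

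Cidea by contrast had scaled levels of 11.3, 20.8, 17.7 and 14.9 CPM in db/m (mean 16.2 ± 4.05) and 18.3, 24.6, 24.7 and 16.3 CPM in db/db (21.0 ± 4.35), with overlapping ranges. The ratio of db/db to db/m was 1.62, 1.18, 1.40 and 1.09, above 1 at all 4 ages but near it at 32 weeks, where the interval (0.928 to 1.28) included 1. Cidea followed Fabp3 over the libraries (r = 0.971, n = 8) more closely than it followed Plin4 (0.130) or Fabp4 (0.110), again as a description.

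**Figure D4:**
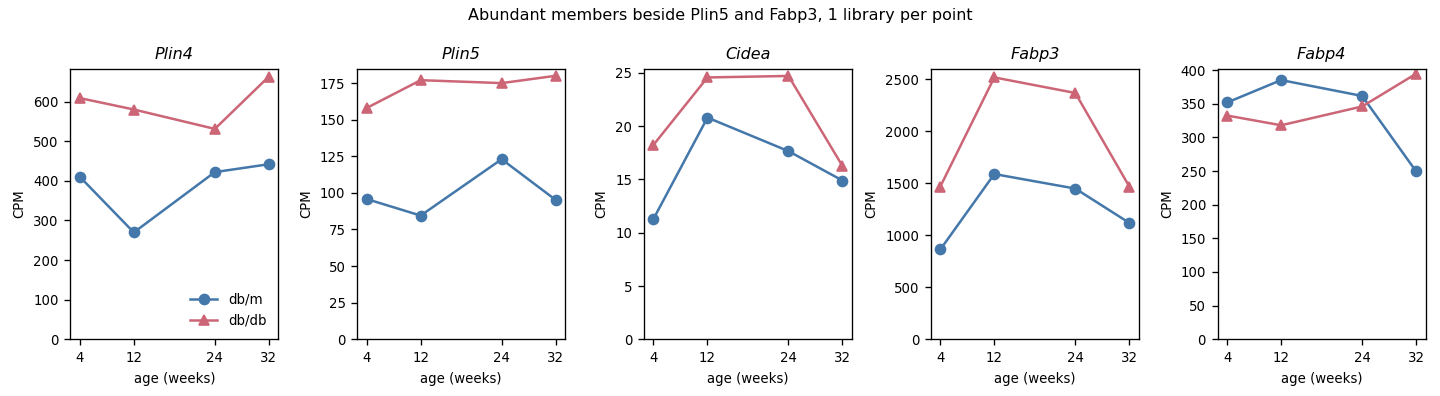
CPM (vertical axes from 0) against age in weeks of Plin4, Plin5, Cidea, Fabp3 and Fabp4, with circles and blue lines for db/m and triangles and red lines for db/db, 1 library per point. Plin4 and Plin5 keep the 2 genotypes apart at all 4 ages, Cidea and Fabp3 are also higher in db/db at each age and peak at 12 and 24 weeks, and Fabp4 differs most at 32 weeks.

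Counting members past a 1.5-fold difference between the 2 libraries of an age, among those with at least 10 counts over the pair, 4 of 6 were higher in db/db and none lower at 4 weeks (Adipoq, Cidea, Plin1 and Lep), beside 12.3% of all genes higher and 14.4% lower. At 12 weeks 1 of 3 was higher (Plin4, beside 8.84% higher and 9.76% lower of all genes), and at 24 weeks none of 3 passed in either direction (14.5% and 15.3%). At 32 weeks Fabp4 and Plin4 were higher and Adipoq and Plin1 lower of 5, beside 15.2% and 12.7%. On total counts alone Cidea was 1.41-fold higher at 4 weeks, which left 3 members past the threshold. The 4-week and 32-week calls of Adipoq and Plin1 rested on 1 to 22 reads, and the 4-week call of Lep on 23 reads against 0. Only Plin4 came close to or past 1.5-fold at 3 of the 4 ages, and on total counts it was 1.3-fold higher at 4 weeks. In the general fat list outside the members, 4 genes were higher in db/db at each age, and 4, 1, 3 and 5 were lower, of 20, 18, 18 and 20 with enough counts. In the brown fat list 3, 1, 1 and 1 of 14 genes were higher and 0, 0, 1 and 5 lower, so neither list moved one way at all ages.

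The genotypes were then compared over the 4 ages in the lists outside the members, with edgeR's quasi-likelihood test and age as a block. No gene passed an adjusted p of 0.05 (0 of 15237, 0.0%), while an unadjusted p under 0.05 was reached by 6.16% of genes on the higher and 5.45% on the lower side of db/db, and the Wald test of DESeq2 called 274 genes (1.8%) after adjustment. In the general fat list 0 of the 18 genes that were fitted passed with edgeR, 3 were higher and 2 lower unadjusted, and DESeq2 called 3. Its median log2 fold change was -0.05, against 0.01 over all genes.

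The 3 genes of that list with the highest mean FPKM were Dgat2 (135), which makes triglyceride, Pnpla2 (37.6) and Aqp7 (19.0). Dgat2 was higher in db/db at 4 of 4 ages, with a log2 fold change of 0.47 (SE 0.10, adjusted p = 0.253 with edgeR and 0.00253 with DESeq2). Pnpla2 and Aqp7 had log2 fold changes of -0.06 (SE 0.13) and -0.15 (SE 0.26). Agpat2, Gpd1 and Pck1, named after their values were seen, had log2 fold changes of -0.97, 0.74 and 2.26, and adjusted p with edgeR of 0.225, 0.272 and 0.329. Agpat2 and Gpd1 were, with Dgat2, the 3 genes called by DESeq2 (adjusted p = 1.9e-04 and 0.00945), which gave no adjusted p for Pck1. Agpat2, an acyltransferase of triglyceride synthesis, was lower in db/db at all 4 ages, so the list did not move one way.

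In the brown fat list 0 of 14 fitted genes passed with edgeR, and 3 were higher and 0 lower unadjusted, with a median log2 fold change of 0.09. Pdk4, Cox7a1 and Cox8b had log2 fold changes of 0.07 (SE 0.22), -0.16 (SE 0.25) and -0.31 (SE 0.17). DESeq2 called 1 gene, Kcnk3, a potassium channel, which was named after its values were seen.

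In the white fat list 2 of the 5 fitted genes were higher unadjusted with edgeR and were also called by DESeq2, Sfrp5 and Agt. Sfrp5, a secreted inhibitor of Wnt signalling, was read 10, 13, 23 and 15 times in db/m and 110, 55, 186 and 92 times in db/db, so the genotypes did not overlap (log2 fold change 2.56, SE 0.27, adjusted p = 0.200 with edgeR and 7.81e-08 with DESeq2). Agt, the precursor of angiotensin, was read 21, 42, 71 and 71 times in db/m and 170, 174, 188 and 132 times in db/db, again without overlap. Tcf21, a factor of fibroblast and fat precursors, had 40 to 81 counts and a log2 fold change of 0.00466 (SE 0.22). Unlike Adipoq and Lep, Sfrp5 and Agt were above their db/m values in all 4 db/db libraries, in those with 1 to 2 reads of Adipoq too.

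Of the 5 droplet coat and FABP relatives, Fabp3 (mean FPKM 1929), Plin3 (79.5) and Plin5 (43.3) had log2 fold changes of 0.63 (SE 0.12), 0.21 (SE 0.11) and 0.80 (SE 0.12). The rest of the list, Plin2 and Fabp5, named after their values were seen, had -0.04 (SE 0.12) and -0.30 (SE 0.17). With edgeR 2 genes of the list were higher and 0 lower unadjusted, and the median log2 fold change was 0.21. Plin5 and Fabp3 were higher in db/db at 4 of 4 ages, with adjusted p of 0.200 and 0.244 with edgeR and 2.22e-05 and 2.33e-05 with DESeq2. Among 10 PPARA targets of heart muscle, whose 3 highest were Pdk4, Cd36 and Cpt1b (mean FPKM 741, 222 and 176), 6 were higher and 0 lower unadjusted and 0 passed the adjustment with edgeR, with a median log2 fold change of 0.34. In the 10 endothelial genes, led by Cdh5, Kdr and Tie1 (64.7, 34.1 and 20.4), 1 was higher and 4 lower unadjusted, and the median was -0.22. Among the 10 heart muscle genes, led by Myh6, Actc1 and Pln, none was past an unadjusted p of 0.05.

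The genes most like Adipoq over the 8 libraries, by Pearson r of log2(CPM + 0.5) among 13992 genes with a mean of at least 1 CPM, were Col11a1 (0.958), Lancl3 (0.956), Abi3bp (0.936), Zscan22 (0.936), Bgn (0.935), Phlda3 (0.930), Nov (0.924), Gm16794 (0.922), Zfhx4 (0.922) and Ltbp2 (0.920). The genes most like Ucp1 were Lrrc14 (0.980), Nacad (0.923), Htra2 (0.913), Jmjd4 (0.895), Zfp189 (0.891), Fam124a (0.891), Slc24a3 (0.890), Atxn1l (0.885), Zfp410 (0.884) and Nr0b2 (0.884). With 12 reads of Ucp1 and 42 of Adipoq over all libraries, these values rest mostly on db/db at 4 weeks, and the points share depth, age and genotype. By Spearman's rho only 1 of the 10 genes of Adipoq and 3 of those of Ucp1 were again among the 10 most like.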

How the data were processed

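RNA of hearts of db/m and db/db mice was sequenced by the authors from rRNA-depleted, strand-specific libraries, 1 per genotype and age. For each of 34745 genes they deposited the raw read count, a whole number, and an FPKM value. That FPKM is the count scaled by a length assigned to the gene and by the total of the library. The submitters' processing notes name HISAT2, StringTie 1.3.0 and GRCm38 (mm10). How counting treated strand and reads with several matches is not given in the sources used here.

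The deposited counts were the main unit, and library totals of 14445436 to 26676268 set the precision. Levels are CPM on TMM-scaled totals, and levels between genes are compared by FPKM. The length assigned to a gene was not compared with that of its spliced transcript, so FPKM comparisons between genes are approximate. Shares of reads within a library are not divided by gene length, so they serve to compare libraries and not genes. Counts at or under 3 were the floor. Intervals are 95% exact Poisson or Clopper-Pearson and cover counting error only. The members and lists were chosen with earlier results of these data known. The members therefore have no test, and 1 library per genotype and age allows none at a single age. For the other lists the genotype was fitted with edgeR 4.0.16 (quasi-likelihood test, age as block, filterByExpr, 15237 genes, Benjamini-Hochberg adjustment over all genes) in R 4.3.3, and checked with DESeq2 1.42.0. The steps were tested on simulated data. Fits with age as a block treat libraries of different ages as repeats of a genotype, so p-values measure the spread between these libraries.

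Genes named are the members, the 3 of each other list with the highest mean FPKM, genes of the fat lists at least 4-fold above the median library, Lepr, and the 10 genes most like Adipoq and Ucp1. Tissue markers named for libraries that stand apart, and others so marked, were picked once their values were known. Settings tried besides were DESeq2 size factors, scaling by total counts alone, no filter, a 4-fold threshold, no age block, leaving out each age, FPKM, leaving out Fabp4 and Plin4, and Spearman's rho. Chosen after seeing the data were a count of Cidea, Fabp4 and Plin4 alone, DESeq2 for the remaining lists, other scalings of Plin4 and the genes most like Plin4. Positions are those of the deposited table, which matched GENCODE vM21 for 34233 genes of 34267 identifiers found there. Tables were made in Python 3.11.15 (pandas 2.3.3, numpy 2.4.6, scipy 1.17.1) and plots with matplotlib 3.10.9.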

Additional observations from a re-analysis of the deposited data

Results flagged for a closer look

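Adipoq and Plin1 differed between db/db and db/m in opposite directions at 4 and at 32 weeks. For Adipoq the log2 ratio of scaled counts was 1.47 at 4 weeks and -3.26 at 32 weeks, which are 4.73 apart. For Plin1 the log2 ratio was 2.47 at 4 weeks and -2.89 at 32 weeks, which are 5.36 apart. Each age holds 1 library per genotype, so the difference between ages was not tested, and the ratios rest on 1 to 22 reads. With counts under the floor set to 3, the log2 ratios at 32 weeks were -1.67 for Adipoq and -2.31 for Plin1.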

How the results depend on the processing

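The near-0 members rest on 0 to 23 reads per library, and no difference between genotypes at a single age can be tested with 1 library each. With a 4-fold threshold in place of 1.5-fold, the members past it numbered 2 at 4 weeks, 0 at 12 weeks and 1 at 32 weeks, the general fat list 2, 1, 0 and 3 genes and the brown fat list 0 genes at each of the 4 ages. The share of all genes past that 4-fold threshold is not given here, so nothing about these genes is read from those counts. Counting only Cidea, Fabp4 and Plin4, 1 member passed 1.5-fold at 4 weeks and 2 at 32 weeks. In the brown list, total counts only gave 1 gene at 4 weeks (against 3), where it also took the members from 4 to 3 and the general list from 8 to 11, and no filter gave 2 genes at 12 weeks. The Wald test of DESeq2 called 274 genes where edgeR called 0, with 3 in the general, 1 in the brown and 2 each in the white and the droplet coat and FABP lists, and the cause was not tested. Leaving out each age in turn gave 0 edgeR calls over all genes and both fat lists, as did the fit with no age block. On total counts Plin4 was 1.3, 2.03 and 1.67-fold higher in db/db at 4, 12 and 32 weeks, and it stayed higher at all 4 ages under each scaling. The directions of the other genes were not recomputed one by one. The labels give no replicate numbers, so the only pairing was by age, through the age block of the edgeR fit.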

Other observations

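The genes most like Plin4 over the 8 libraries were chosen for display after the data were seen. They were led by Cdo1 (r = 0.964), which makes taurine precursors from cysteine, by Arhgap26 (0.959) and by Gabrr2 (0.951), again as a description over 8 libraries that share genotype and age. Chosen in the same way, Adrb3 of the general list, the beta-3 adrenergic receptor of adipocytes, had 6 reads in db/db at 4 weeks, 1 in db/m at 32 weeks and 0 in the other 6 libraries. Hoxc9 and Hoxc10, homeobox genes of the posterior trunk that were also chosen after their values were seen, were read 5 and 6 times in db/m at 4 weeks, the library with 864 reads of Myh4, and 0 times in the other 7.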
